A study of Mus musculus with 6 samples.

Results

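Retinoid binding and metabolism was followed through 9 genes whose products carry, take up, bind or oxidize retinoids or respond to them, namely Rbp4, Stra6, Rbp7, Aldh1a1, Aldh1a2, Aldh1a3, Crabp1, Crabp2 and Rarb. The genes were chosen by their known roles because Rbp7 was among the clearest rises between the groups compared here, so the difference of Rbp7 between test and control tumors picked the set and is not a finding. All 9 were found among the 18460 genes listed in at least 1 tumor, and all 9 were among the 13706 genes that passed the filter on low counts. The values of the 9 genes are therefore given as a description, with no p for any of them, and counts of calls among them are printed beside those over all genes without being read as support.

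RNA was sequenced from 6 bulk breast tumors of Balb/c mice that carried PyMTtg, a polyoma middle T transgene that starts breast tumors, and Rag1KO, a deletion that leaves the host without T and B cells of its own. The 3 control tumors came from PyMTtg;Rag1KO hosts that received CD4+ T cells. The 3 test tumors came from K14-TSLPtg;PyMTtg;Rag1KO hosts that received CD4+ T cells, and their added transgene expresses Tslp, a cytokine that activates dendritic cells and CD4+ T cells, from the keratinocyte promoter K14. In both groups the T cells were given at 4 wk of age and the tumors were taken at the endpoint of 18 to 20 wk. Per the study, every tumor was taken from a different mouse, and the labels number the tumors from 1 to 3 in each group.

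The total expected count per tumor ran from 8373390 to 9449565. Across genes, control tumor 2 stood apart from its group. Its log expression had a correlation of 0.874 with control tumor 1 and 0.908 with control tumor 3 across genes, below its correlations of 0.921, 0.927 and 0.935 with test tumors 1, 2 and 3. Several results that rest on this tumor are given with and without it. Tslp itself had 2, 2 and 3 rounded counts in the control tumors and 12, 7 and 2 in the test tumors, so test tumor 3 could not be told from the controls by this gene in tumor tissue at this depth. Rag1 had 27, 4 and 10 counts in the control tumors and 6, 12 and 9 in the test tumors, and overlapped between the groups. Both genes were too low to pass the filter.

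Vitamin A travels in blood as retinol bound to Rbp4 and can enter cells through the receptor Stra6. Inside cells it is held by cellular retinol binding proteins, stored as esters, or oxidized first to retinaldehyde and then, by the Aldh1a enzymes, to retinoic acid, which binding proteins of the Crabp family carry and enzymes of the Cyp26 family break down. Retinoic acid acts through nuclear receptors of the Rar and Rxr families, and in mammary epithelium it is known for effects on differentiation and growth.

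Rbp7 and Crabp2 were higher in each test tumor than in each control tumor, Aldh1a1 was lower in each test tumor, and the other 6 genes overlapped between the groups. Thus 2 of 9 genes were higher without overlap, against 6.12% of the 13706 tested genes, and 1 of 9 was lower without overlap, against 5.86% of the tested genes. The choice of the set used this contrast, so nothing is read from these counts. With edgeR at a false discovery rate of 0.05, 0 of the 9 genes and 0 of the 13706 tested genes (0%) were called. At an unadjusted p under 0.05, edgeR gave 432 genes higher (3.15%) and 721 genes lower (5.26%), among them 2 and 1 of the 9. DESeq2 called 313 of the 13674 genes to which it gave an adjusted p (2.29%), 3 of them among the 9. It gave Crabp1 no adjusted p. With limma on log2(FPKM + 1), 1 gene (0.00776%) was called and none of the 7 of these genes that passed its filter. Without control tumor 2, edgeR called 182 genes (1.28%), 1 of them among the 9. The median log2 fold change was 0.43 over the 9 genes and 0.02 over all tested genes. That of the 9 had no stable sign, since it was 2.09 without control tumor 2, -0.12 without control tumor 3, -0.28 without test tumor 2 and -0.60 without test tumor 3. In the text, CPM, which scale counts to a common TMM library size, serve to compare tumors, FPKM serves to compare genes, and the log2 fold changes are test over control with the standard error (SE) of the edgeR fit on 3 and 3 tumors.

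**Figure D1:**
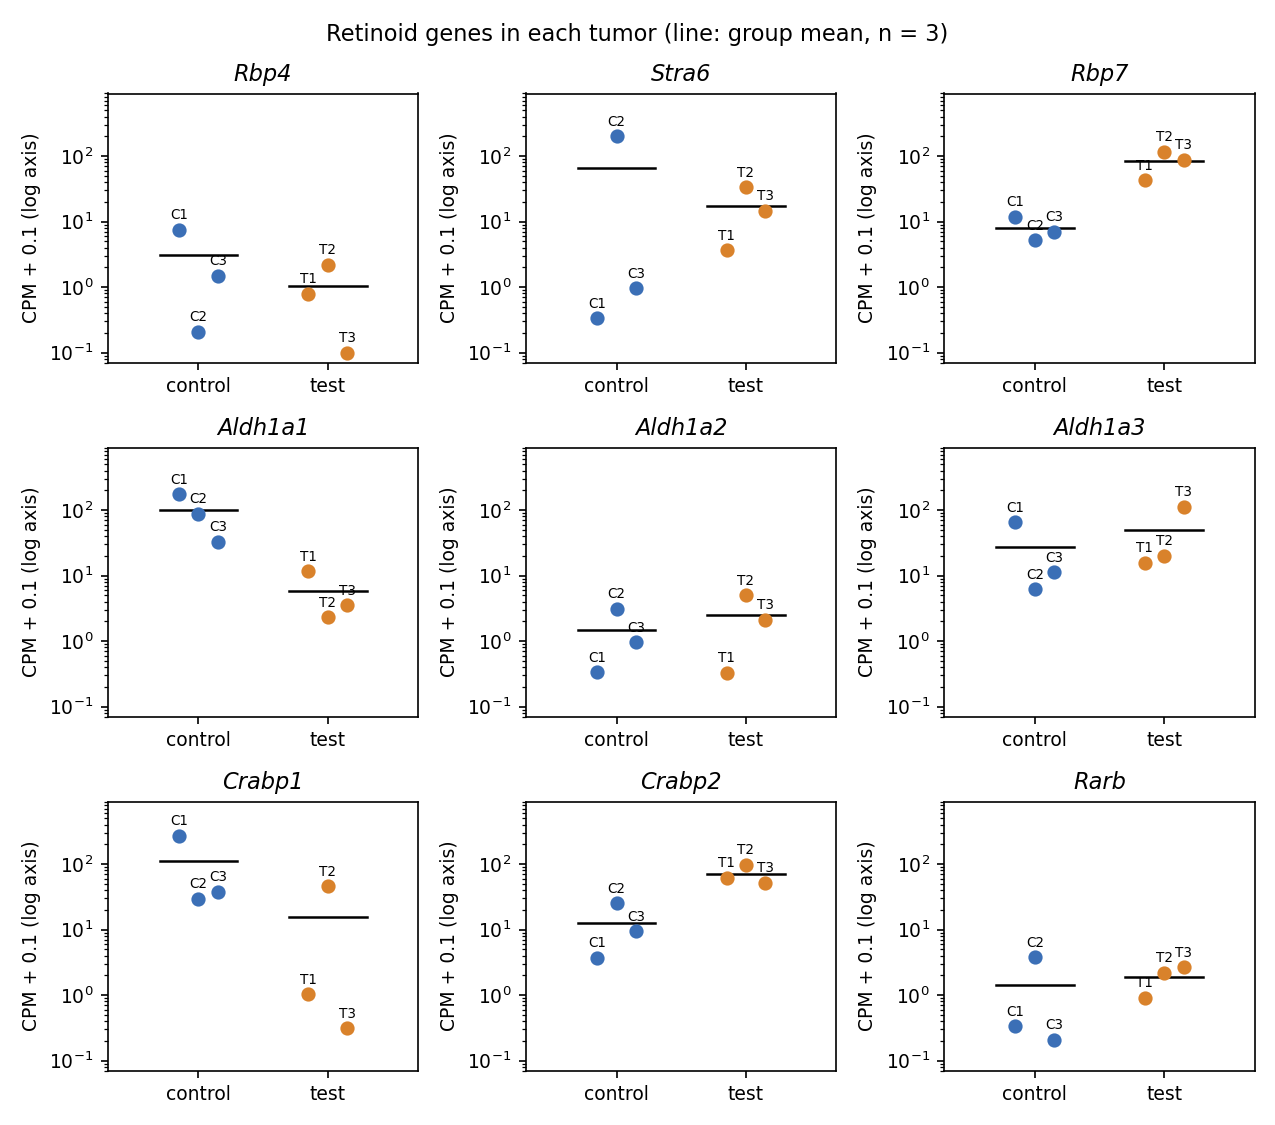
Level of the 9 retinoid genes in each tumor as CPM + 0.1 on a log axis, with control tumors (C1 to C3) in blue, test tumors (T1 to T3) in orange and a line at the group mean (n = 3). The groups of Rbp7, Crabp2 and Aldh1a1 are apart, control tumor 2 stands far above the other controls for Stra6, and test tumor 2 lies among the controls for Crabp1.

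Rbp4, the carrier of retinol in blood, is encoded by NCBI Gene 19662 at chr19:38116620-38125321 (GRCm38.p6, as are all positions here). It was low in every tumor, with 7.41, 0.108 and 1.39 CPM in control tumors 1, 2 and 3 and 0.692, 2.08 and 0 CPM in test tumors 1, 2 and 3. The count of 0 in test tumor 3 allows up to 0.318 CPM. The groups overlapped, since control tumor 1 was highest and control tumor 2 was below test tumors 1 and 2. Its log2 fold change was -1.68 (SE 1.45), and it became 0.27 without control tumor 1.

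Stra6, the cell surface receptor that takes up retinol from Rbp4 (Gene 20897, chr9:58063793-58154004), was present at 0.232, 198.6 and 0.852 CPM in the control tumors and at 3.58, 33.3 and 14.5 CPM in the test tumors. Control tumor 2 was far above every other tumor, with 1836 rounded counts against 2 and 8 in the other controls, and the groups overlapped through this tumor alone. The log2 fold change of -1.96 (SE 1.87) rested on it, and became 4.93 without control tumor 2. The annotated span of Stra6 overlaps that of Ccdc33, and the strand used in counting is not given in the sources used here, so reads of the overlap could not be assigned with certainty. The same holds for Rbp7, whose span overlaps the pseudogene Trmt112-ps2. It also holds for Aldh1a1, whose span overlaps the long noncoding RNAs E030003E18Rik and C730002L08Rik and the pseudogene Gm6684. Rarb is a further case, since its span overlaps the pseudogenes Gm46442, Gm19061, Tpi-rs9 and Gm18078. Spans were compared, not exons. Expected counts that were not whole numbers occurred in 0 of the 6 tumors for Stra6, Rbp7 and Rarb, and in 5 for Aldh1a1.

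Rbp7 is a retinol binding protein inside cells, known from adipose tissue and endothelium among other tissues (Gene 63954, chr4:149449687-149466462). It was present at 11.8, 5.08 and 6.93 CPM in control tumors 1, 2 and 3 and at 42.7, 116.4 and 88.2 CPM in test tumors 1, 2 and 3. These levels rest on 102, 47 and 65 rounded counts in the controls and on 370, 954 and 831 in the test tumors. Test tumor 2 was highest and control tumor 2 lowest, and the lowest test tumor stood above the highest control. The mean was 7.94 ± 3.47 CPM in control and 82.4 ± 37.2 CPM in test tumors (SD, n = 3 each), a ratio of 10.4. The log2 fold change of 3.38 (SE 0.49), the value that led to the choice of the set, was number 24 from the top among the 13706 tested genes. It lay between 3.05 and 3.77 over the 13 alternative settings tried, tumors left out included. On the FPKM scale, Rbp7 went from a mean of 13.8 in control to 142 in test tumors. In bulk tumor RNA a change in the number of cells that express a gene and a change in its RNA per cell cannot be told apart, and this holds for every difference given here.

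Start site sequences from RefSeq (GRCm38.p6) were matched by gene identifier for 7 of the 9 genes. They are shown for Rbp7, the gene behind the choice of the set, for Aldh1a1, the gene farthest in the other direction, and for Rarb and Cyp26a1, whose windows hold a DR5. DR5 is the name of the retinoic acid response element made of a pair of AGGTCA-like hexamers as a direct repeat with 5 bases between them. Each line gives the 250 bases before an annotated start, 5′ to 3′ on the strand of the gene, in lower case with a DR5 in capitals. The windows are chr4:149454969-149455218 on the minus strand for Rbp7, chr19:20601718-20601967 on the plus strand for Aldh1a1, chr14:16575477-16575726 on the minus strand for Rarb and chr19:37697558-37697807 on the plus strand for Cyp26a1. Those of Rbp7, Aldh1a1 and Rarb lie inside the annotated span of their own gene, which reaches farther upstream.
Rbp7: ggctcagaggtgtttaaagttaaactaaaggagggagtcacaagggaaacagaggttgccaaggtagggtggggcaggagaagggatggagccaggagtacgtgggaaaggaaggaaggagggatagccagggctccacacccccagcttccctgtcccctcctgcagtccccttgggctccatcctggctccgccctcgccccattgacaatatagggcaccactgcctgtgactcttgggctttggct
Aldh1a1: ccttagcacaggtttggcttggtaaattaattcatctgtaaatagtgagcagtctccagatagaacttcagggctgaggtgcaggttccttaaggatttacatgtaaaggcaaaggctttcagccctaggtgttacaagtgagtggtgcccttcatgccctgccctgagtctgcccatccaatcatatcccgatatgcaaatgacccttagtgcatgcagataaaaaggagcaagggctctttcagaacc
Rarb: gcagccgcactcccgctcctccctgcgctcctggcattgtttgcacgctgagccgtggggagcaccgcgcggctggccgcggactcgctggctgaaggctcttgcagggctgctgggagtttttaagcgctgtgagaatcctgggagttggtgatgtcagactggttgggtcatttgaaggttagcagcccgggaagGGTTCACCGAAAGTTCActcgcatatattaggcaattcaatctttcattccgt
Cyp26a1: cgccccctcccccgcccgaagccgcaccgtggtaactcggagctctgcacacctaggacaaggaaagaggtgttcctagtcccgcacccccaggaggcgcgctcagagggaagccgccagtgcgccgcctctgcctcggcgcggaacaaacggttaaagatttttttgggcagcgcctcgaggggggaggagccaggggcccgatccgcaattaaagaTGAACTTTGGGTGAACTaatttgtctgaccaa

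A DR5 on either strand was found in 32 of 32851 windows of 300 bases over all genes (0.0974%), or 31 of 27025 genes, each from 250 bases before to 50 after a start. It was found in 1 of the 7 retinoid genes with a window, Rarb, at 53 to 37 bases before the start (chr14:16575513-16575529), and in 1 of 36 other pathway genes with a window, Cyp26a1, at 32 to 16 bases before the start on the opposite strand (chr19:37697776-37697792). The single hexamer AGTTCA, which the DR5 of both genes contains, was in windows of 2 of the 7 genes, Rarb and Stra6, against 4242 of all 27025 genes with a window, and AGGTCA was in none of the 7, against 4900. DR1 and DR2, the same repeats with 1 and 2 bases between the hexamers, were in none of the 7 genes, against 71 and 84 of the 27025 genes. The start windows of Rbp7 and the shown window of Aldh1a1 held none of these motifs. A match or its absence describes the letters of a window and says nothing on the binding of a receptor.

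Aldh1a1 oxidizes retinaldehyde to retinoic acid (Gene 11668, chr19:20492583-20643463). It was present at 174.3, 88.1 and 32.7 CPM in the control tumors and at 11.7, 2.20 and 3.40 CPM in the test tumors. Each test tumor was below each control, although the controls themselves spread widely. The mean was 98.4 ± 71.3 CPM in control and 5.75 ± 5.14 CPM in test tumors (SD, n = 3 each), so the control mean was 17.1 times the test mean. The log2 fold change was -4.09 (SE 0.83), number 39 from the bottom of the tested genes, and lay between -5.12 and -3.39 over 13 alternative settings. Its near copy Aldh1a7 (Gene 26358, chr19:20692953-20727556), added after the values were seen because both had fractional counts in 5 of the 6 tumors, may share reads with it, so the split between them is uncertain. Aldh1a7 was at 27.5, 34.1 and 7.88 CPM in the control and at 1.85, 3.05 and 1.91 CPM in the test tumors, also without overlap, with a log2 fold change of -3.35 (SE 0.60).

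Aldh1a2 (Gene 19378, chr9:71215789-71296243), which carries out the same step, was low, at 0.232, 3.03 and 0.852 CPM in the control and 0.231, 4.88 and 2.02 CPM in the test tumors. The groups overlapped, and its log2 fold change of 0.78 (SE 1.12) became -0.28 without test tumor 2 and 2.09 without control tumor 2. Aldh1a3 (Gene 56847, chr7:66390892-66427477), the remaining enzyme of this step, was at 64.9, 6.06 and 11.1 CPM in the control and at 15.6, 20.0 and 111.8 CPM in the test tumors. Here control tumor 1 and test tumor 3 were high and the others low, with overlap. Its log2 fold change of 0.85 (SE 1.03) became -0.60 without test tumor 3 and 2.52 without control tumor 1.

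Crabp1 and Crabp2 bind retinoic acid inside cells, and Crabp2 is known to hand it to nuclear receptors. Crabp2 (Gene 12904, chr3:87948693-87953372) was at 3.59, 25.1 and 9.27 CPM in the control and at 61.8, 97.4 and 51.9 CPM in the test tumors. Every test tumor was above every control, with control tumor 2 nearest to the test tumors. The means were 12.7 ± 11.1 CPM in control and 70.4 ± 23.9 CPM in test tumors (SD, n = 3 each), a ratio of 5.56. Fitted, its log2 fold change was 2.47 (SE 0.66), number 88 from the top of the tested genes, and lay between 2.03 and 3.45 over 13 alternative settings.

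Crabp1 (Gene 12903, chr9:54764748-54773110) was at 269.6, 29.3 and 37.4 CPM in the control and at 0.923, 45.5 and 0.212 CPM in the test tumors. In test tumors 1 and 3 it had 8 and 2 rounded counts, while test tumor 2 lay within the range of the controls, so the groups overlapped through that tumor. Its log2 fold change was -2.85 (SE 1.66), and it was -7.61 without test tumor 2 and -1.11 without control tumor 1.

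Rarb, a retinoic acid receptor whose own gene is a known target of retinoic acid (Gene 218772, chr14:16430839-17082331), was low. It had 2, 34 and 1 rounded counts in the control tumors and 7, 17 and 24 in the test tumors, or 0.232, 3.68 and 0.107 CPM and 0.807, 2.08 and 2.55 CPM. Control tumor 2 was highest and the other controls lowest, so the groups overlapped. The log2 fold change of 0.43 (SE 1.15) became -0.07 without control tumor 1, -0.12 without control tumor 3 and 3.33 without control tumor 2. The same 3 tumors, control tumor 2 and test tumors 2 and 3, held the highest levels of Stra6, Aldh1a2 and Rarb. Cyp26a1, the other gene with a DR5 and singled out for it after the windows were searched, was at 2.55, 1.51 and 0.959 CPM in the control and 1.04, 5.62 and 1.59 CPM in the test tumors, with overlap.

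The makeup of each family was compared as shares of summed FPKM, a scale per transcript length on which genes can be set side by side. Of the 3 Aldh1a enzymes, Aldh1a1 held 81.9%, 93.4% and 81.8% in the control tumors and 55.4%, 12.0% and 4.79% in the test tumors. Aldh1a3 held 18.0%, 3.77% and 16.3% in the controls and 43.6%, 64.2% and 92.7% in the test tumors. Aldh1a1 was thus the major enzyme of every control, and Aldh1a3 that of test tumors 2 and 3, while the summed FPKM of the 3 enzymes overlapped between the groups, at 97.9, 48.2 and 20.3 in the controls and 10.7, 8.60 and 34.9 in the test tumors.

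Among Crabp1, Crabp2 and Fabp5, a fatty acid binding protein that can also carry retinoic acid, Crabp2 held 0.702%, 13.8% and 5.50% in the controls and 69.7%, 34.7% and 26.5% in the test tumors. Fabp5 held the largest share in control tumors 2 and 3 and in test tumors 2 and 3, Crabp1 in control tumor 1 with 64.7%, and Crabp2 in test tumor 1. Rarb held at most 2.57% of the FPKM of Rara, Rarb and Rarg in any tumor, while Rarg held 48.9% to 62.9% and Rara 35.0% to 50.5%.

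**Figure D2:**
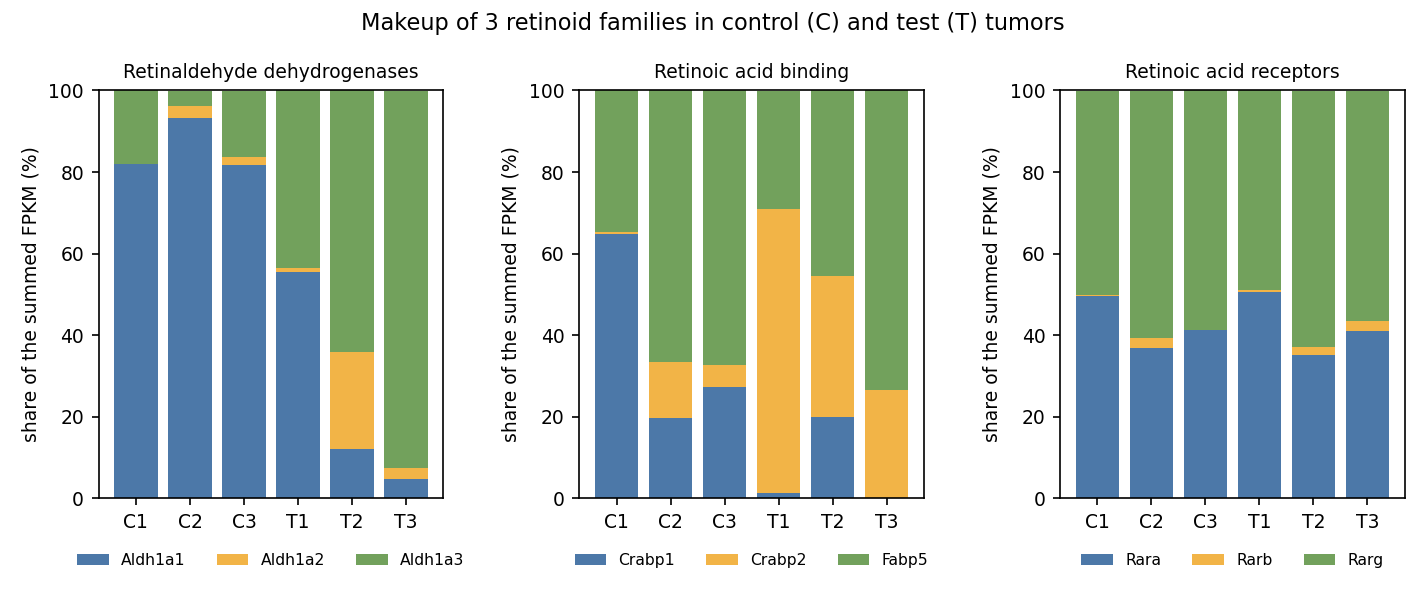
Share of the summed FPKM held by each gene of a family, stacked to 100% for each control (C1 to C3) and test (T1 to T3) tumor. The Aldh1a1 share is largest in the controls, at 81.8% to 93.4%, the Crabp2 share is larger in each test tumor than in each control, and Rarb holds at most 2.57% of the receptors.

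Around these 9 genes, a list of 50 other genes of the retinoid pathway was followed by role. Of these, 45 were listed in at least 1 tumor and 34 passed the filter, while the expression of Ttr, Adh4, Hoxb1, Stra8 and Pnpla4 was not analysed here. With edgeR, 0 of the 34 were called at a false discovery rate of 0.05, and 0 of those that DESeq2 or limma tested. At an unadjusted p under 0.05 there were 1 higher and 3 lower, beside 3.15% and 5.26% of all tested genes. Of the 34, 19 had a positive and 15 a negative log2 fold change, with a median of 0.07. The groups did not overlap for 2 genes that were higher in test tumors and 3 that were lower, beside 6.12% and 5.86% of all tested genes.

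Among the 4 tested nuclear receptors of the list, all had a negative log2 fold change. Over all tumors, Rarg had the highest mean FPKM of the receptors. In test tumor 1, Rxra and Rara were higher, at 32.5 and 21.9 against 21.2 FPKM. Rarg was at 106.0, 85.4 and 82.5 CPM in the control and 57.7, 61.4 and 58.0 CPM in the test tumors. The groups did not overlap (log2 fold change -0.63, SE 0.22, adjusted p 0.505 by edgeR). Rxrb, a partner receptor, was at 42.1, 62.7 and 37.9 CPM in the control and 37.5, 30.9 and 31.2 CPM in the test tumors, and the groups were only just apart (-0.52, SE 0.28, adjusted p 0.684 by edgeR). Without control tumor 2 its log2 fold change was -0.27. Cyp26b1, which breaks down retinoic acid, was at 23.7, 5.62 and 13.4 CPM in the control and 3.23, 4.76 and 4.78 CPM in the test tumors, without overlap but with control tumor 2 close to the test tumors (-1.74, SE 0.55, adjusted p 0.469 by edgeR).

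Rarres2, named for its response to retinoic acid, was at 6.37, 10.6 and 5.75 CPM in the control and 14.6, 18.4 and 15.7 CPM in the test tumors (1.10, SE 0.36, adjusted p 0.475 by edgeR). Rdh13, a retinol dehydrogenase family member, was at 9.84, 8.98 and 10.6 CPM in the control and 11.8, 13.2 and 10.7 CPM in the test tumors, a gap smaller than the spread within a group (0.28, SE 0.30). Both were higher in CPM in each test tumor than in each control. On FPKM the groups of Rdh13 overlapped, with 3.56 in control tumor 3 and 3.49 in test tumor 3. The fourth gene at an unadjusted p under 0.05, besides Rarres2, Cyp26b1 and Rarg, was Cd38, which is named here after its values were seen. Its log2 fold change was -1.42 (SE 0.51, adjusted p 0.513 by edgeR). The groups overlapped between control tumor 2 at 11.5 CPM and test tumor 3 at 15.6 CPM, and were apart without either tumor.

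For other roles, the most abundant genes described here overlapped between the groups. Pnpla2, a lipase that releases stored lipid and retinyl esters, was highest in test tumor 1 at 512.0 CPM (1.02, SE 0.56), and its log2 fold change was 0.23 without that tumor. Fabp5 was lowest in the same tumor at 27.8 CPM (-0.47, SE 0.57), and -0.01 without it. Stra6l, a relative of Stra6, had a log2 fold change of -0.47 (SE 0.82), Bco1, which cleaves carotene, 0.25 (SE 0.67), and Adh5, an alcohol dehydrogenase, 0.24 (SE 0.27). Dhrs3, which reduces retinaldehyde back to retinol, had -0.42 (SE 0.28), the corepressor Ncor1 -0.07 (SE 0.26) and the retinoic acid target Tgm2 -0.36 (SE 0.43). Each of these 6 was smaller than 2 SE.

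**Figure D3:**
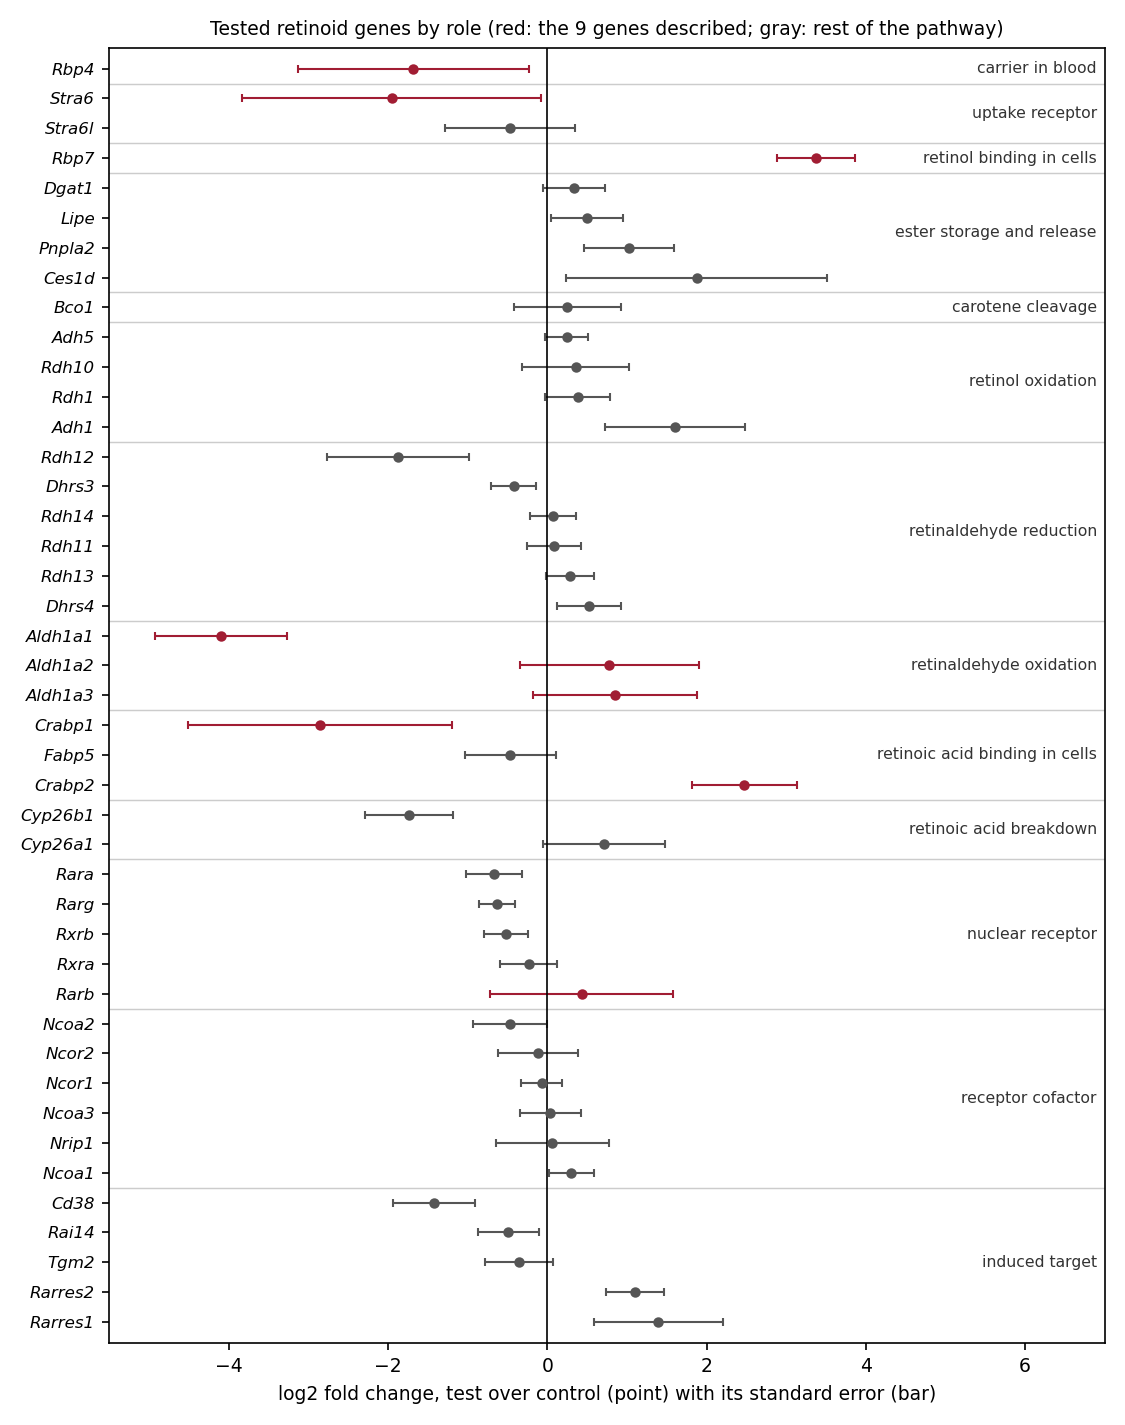
Log2 fold change of test over control tumors for the 9 retinoid genes (red) and 34 other tested pathway genes (gray), ordered by role, with bars of 1 SE from the edgeR fit (n = 3 tumors per group). Rbp7 at 3.38, Crabp2 at 2.47 and Aldh1a1 at -4.09 lie farthest from 0 relative to their bars, and Stra6 and Crabp1 have wide bars.

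Among 13651 genes with a mean of at least 1 CPM, the genes whose log2(CPM + 0.5) was most like that of Rbp7 over the 6 tumors were Trim36 (r = 0.992), Kcne3 (0.985), S100a16 (0.985), Chmp4b (0.98) and 1110008P14Rik (0.973). These values describe 6 tumors in which both groups enter, so a rise in the test tumors adds to the likeness. Of the other retinoid genes without overlap, Crabp2 had r = 0.748 with Rbp7 and Aldh1a1 had -0.896. Trim36 was at 3.01, 2.38 and 2.34 CPM in the control and 6.69, 11.4 and 8.38 CPM in the test tumors. After the mean of each group was subtracted, which leaves the variation among tumors of a group, Ugdh (r = 0.999), Gpr137b-ps (0.997), Rmdn2 (0.997), Fxyd5 (0.996) and Actb (0.995) ranked first. Without that subtraction their correlations with Rbp7 were -0.32, -0.26, -0.72, 0.29 and 0.27. The 5 genes named first had correlations of 0.912, 0.888, 0.839, 0.841 and 0.945 with Rbp7 after the subtraction, in the same order.

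Marker lists of 12 cell types were read beside these results, with 81 of their 85 genes listed. None of their tested genes was called by edgeR at a false discovery rate of 0.05. The 10 adipocyte markers summed to 126.5, 64.5 and 123.4 CPM in the control and to 923.7, 230.1 and 56.6 CPM in the test tumors, led in FPKM by Fabp4, with 5 of the 6 tested genes at a positive log2 fold change. Test tumor 1 thus had the highest adipocyte sum and the least Rbp7 of its group, at 42.7 CPM. Test tumor 3 had the lowest adipocyte sum of all 6 tumors, 3 rounded counts of Adipoq, and Plin1 and Lep at 0, with Rbp7 at 88.2 CPM. Elsewhere Plin1, Lep and Retn were at 0 in control tumor 1 and Lep in test tumor 2.

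The 12 endothelial markers summed to 244, 145 and 264 CPM in the control and to 195, 274 and 219 CPM in the test tumors. They were led in FPKM by Gpihbp1, with none at 0 and none apart between the groups. Of the 12, 9 had a positive log2 fold change, with a median of 0.32 over the list. The 7 luminal epithelial markers, led in FPKM by Krt18, summed to 2173, 4123 and 1874 CPM in the control and 5356, 5336 and 5700 CPM in the test tumors. All 7 had a positive log2 fold change, with a median of 0.96, and 4 of 7 were higher without overlap, beside 6.12% of all tested genes. The others, Epcam, Cdh1 and Cldn4, overlapped through control tumor 2 alone. Without that tumor, 35.1% of all tested genes were apart in either direction. Per 1000 CPM of this list, Rbp7 was at 5.43, 1.23 and 3.69 in the control and 7.97, 21.8 and 15.5 in the test tumors. On the same scale Crabp2 was at 1.65, 6.09 and 4.95 in the control and 11.5, 18.3 and 9.10 in the test tumors.

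**Figure D4:**
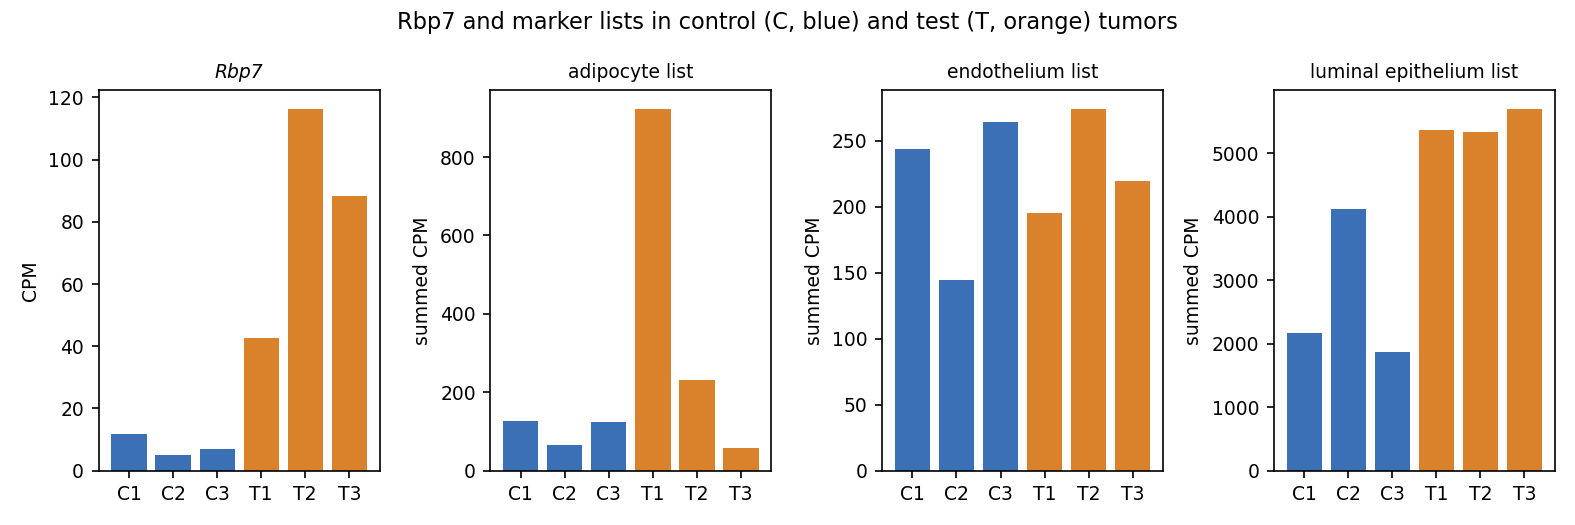
CPM of Rbp7 and summed CPM of the adipocyte, endothelial and luminal marker lists in each control (C, blue) and test (T, orange) tumor. Rbp7 is high in test tumor 3 at 88.2 CPM, where the adipocyte sum is lowest at 56.6 CPM, and the luminal sum is higher in each test tumor.

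The 7 basal epithelial markers, led in FPKM by Acta2, summed to 792, 454 and 2935 CPM in the control and 1156, 669 and 520 CPM in the test tumors, with 6 of 7 at a negative log2 fold change. The skin keratinocyte markers, led in FPKM by Sbsn, stayed between 5.54 and 25.2 CPM, with Krt1 at 0 in control tumor 1 and test tumor 1. The 8 skeletal muscle markers were led in FPKM by Acta1. They summed to 8.45, 221 and 6.93 CPM in the control and 1311, 192 and 122 CPM in the test tumors. All 8 had a positive log2 fold change, and each overlapped between the groups through control tumor 2 alone. Ckm was at 0 in control tumor 1. The 7 fibroblast markers were led in FPKM by Col1a1. Their sum ranged from 607 to 2270 CPM in the control and from 934 to 3645 CPM in the test tumors. A positive log2 fold change was found for 5 of 7. Only Dpt, named here after its values were seen, was higher without overlap (1.64, SE 0.37), beside 6.12% of all tested genes.

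The 6 macrophage markers, led in FPKM by C1qb, summed to 426, 286 and 615 CPM in the control and 269, 640 and 367 CPM in the test tumors. The 6 dendritic cell markers, led in FPKM by Itgax, lay between 17.8 and 57.9 CPM, with Clec9a at 0 in control tumor 2, Cd209a in test tumor 1 and Flt3 in test tumor 2. The T cell markers, led in FPKM by Cd3d, were very low in all tumors, at 3.89 to 6.18 CPM in the control and 3.00 to 4.88 CPM in the test tumors, with Cd28 at 0 in control tumor 2 and test tumor 3 and Cd3g in control tumor 3. The 4 red blood cell markers, 3 of them listed and led in FPKM by Hba-a1, summed to 137 to 490 CPM in the control and 328 to 426 CPM in the test tumors. Of the hepatocyte list, Trf held nearly the whole sum of 2200 to 20330 CPM, and Trf is also made by mammary epithelium. Alb had 3, 3 and 0 rounded counts in the control and 0 in each test tumor, and Apoa1 at most 4 in any tumor. Apoc3 had 16 counts in test tumor 1 and at most 3 elsewhere, Serpina1a had 25 in control tumor 3 and at most 6 elsewhere, and each of these genes was at 0 in 2 or more tumors. Whether the makeup of the tumors has a part in the differences of Rbp7, Crabp2 and Aldh1a1 was not tested. This holds for luminal, basal, muscle, fat, endothelial and fibroblast RNA.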

How the data were processed

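Total RNA of 3 test and 3 control tumors was sequenced. The submitters' processing notes name Bowtie, BWA, RSEM and the mm10 build, without versions. The files the authors deposited hold, per tumor, raw expected counts of each gene beside its length and its FPKM, scaled for length and depth. Genes not listed in a tumor were set to 0. Between 79.0% and 80.1% of the expected counts were whole numbers, within a tolerance of 0.005, and fractional counts can mark reads shared between genes. A floor of 3 counts equals 0.318 to 0.366 CPM and covers counting error only.

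Expected counts were rounded, filtered (filterByExpr), put on TMM library sizes and compared by the edgeR 4.0.16 quasi-likelihood method in R 4.3.3, with Benjamini-Hochberg adjustment over all 13706 tested genes. The SE is the log2 fold change divided by the square root of F. DESeq2 1.42.0, limma 3.58.1 on FPKM, other filters and scaling, a replicate block and leaving out each tumor were the alternatives. The methods were tested on simulated data. Tables were handled with Python 3.11.15 and pandas 2.3.3, and figures drawn with matplotlib 3.10.9.

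The genes and lists were chosen with earlier results of these data known. Named genes are the 9 retinoid genes, pathway genes that were called, that had no overlap between groups at a mean of at least 1 CPM, or that had the highest FPKM of their role, the 5 genes most like Rbp7 by each measure, the highest gene of each marker list with the markers at 0, and Tslp and Rag1. The counts without overlap under other settings and the calls among the 9 genes were added after the data were seen. A pathway gene is not reported here.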

Additional observations from a re-analysis of the deposited data

How the results depend on the processing

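The log2 fold changes of 22 named genes were recomputed under up to 13 alternatives, 276 values in all, of which 254 kept their direction and lay within the spread between tumors, 5 moved beyond that spread with the same direction and 17 turned direction. Rbp7, Crabp2, Aldh1a1, Crabp1, Cyp26b1, Dhrs3, Fabp5, Pnpla2, Rarg, Rarres2, Rdh13 and Rxrb kept their direction under every alternative run. The cause was not tested for any of the changes below.

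Genes called at a false discovery rate of 0.05 numbered 0 with edgeR, 313 with DESeq2 and 1 with limma on log2(FPKM + 1), and 0 to 182 when a tumor was left out, the 182 without control tumor 2. Among the 9 retinoid genes the calls, an alternative chosen after seeing the data, were 0 with edgeR, 3 with DESeq2 and 0 to 1 when a tumor was left out, the 1 without control tumor 2. DESeq2 gave Crabp1 no adjusted p. These calls are counts only, since this contrast picked the set. No other pathway gene was called in any setting that tested it. The number of the 9 genes without overlap, chosen after seeing the data too, was 3, and 3 to 5 when a tumor was left out. That of the 34 other pathway genes was 5 with TMM, 4 with RLE library sizes, and 5 to 11 when a tumor was left out, with 11 without control tumor 2 or test tumor 3 and 10 without test tumor 1. Over all tested genes the share without overlap was 12.0% with 6 tumors. It was 35.1% without control tumor 2, 24.0% without test tumor 1, 22.6% without test tumor 3 and 15.4% to 22.4% without another tumor. Fewer tumors overlap less often by construction. The cause of the spread among these settings, which each left out 1 tumor, was not tested.

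With limma on log2(FPKM + 1), Stra6 turned to 0.25 and Cyp26b1 moved from -1.74 to -0.97. With limma on log2(FPKM + 0.1), Stra6 turned to 1.33 and Bco1 to -0.041. Crabp1 kept its direction, with -5.24 under a replicate block and from -7.61 to -1.11 when a tumor was left out. When a tumor was left out, the log2 fold changes ran from -3.07 to 0.27 for Rbp4, from -2.88 to 4.93 for Stra6, from -0.28 to 2.09 for Aldh1a2, from -0.60 to 2.52 for Aldh1a3, from -0.12 to 3.33 for Rarb, from -0.91 to 0.19 for Stra6l, from -0.74 to 0.63 for Bco1, from -0.013 to 0.36 for Adh5, from -0.18 to 0.046 for Ncor1 and from -0.80 to 0.033 for Tgm2.

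Tumors of the same number did not deviate together from their group means. Correlations across genes were -0.03, 0.12 and -0.14 for numbers 1, 2 and 3, and -0.16 to 0.22 for tumors of different numbers. No pairing by number was thus seen, but such values cannot tell whether tumors of a number were handled together. With a replicate block, 0 genes were called, Stra6 turned to 1.60 and Bco1 to -0.05.

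The common biological coefficient of variation between tumors of a group was 0.434. Rarb, Aldh1a2, Rbp4 and Tslp had few counts in most tumors, and their counts spread widely within a group. The split of reads between Aldh1a1 and Aldh1a7 is uncertain.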
